A study of Mus musculus with 9 samples.

Results

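A set of 9 transcription factors of tooth and oral patterning was followed in the mandible: *Pitx1*, *Pax9*, *Barx1*, *Lhx6*, *Lhx8*, *Tbx1*, *Sox2*, *Isl1* and *Irx1*. They were taken by symbol from a list of factors, with 1 gene per symbol, and make up 9 of the 27179 genes in the count table. All 9 passed the filter on low counts. RNA-seq of poly(A) RNA had been made from whole mandibles, teeth included, of 5 wild-type (WT) mice and 4 mice labelled FcγRIIB-/-, which by label lack the inhibitory Fc gamma receptor and are used to model lupus with bone loss. All 9 mice were C57BL/6 males at 6 months of age, with 1 library per mouse. Per-library totals ran from 24158960 to 26787359 counts in WT and from 21453880 to 28991631 in the other group.

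These factors belong to the combinatorial code that places and shapes teeth along the jaw. *Isl1*, *Tbx1*, *Pitx1*, *Sox2* and *Irx1* are known from the oral and dental epithelium, where *Isl1* marks the epithelium of the future incisor and *Sox2* marks epithelial stem cells of the growing incisor. *Pax9*, *Barx1*, *Lhx6* and *Lhx8* are known from the neural crest-derived mesenchyme under it, and *Barx1* marks the molar region. The mouse incisor grows throughout life, so a mandible with its teeth still holds developing dental epithelium and mesenchyme in the adult. Several of these factors have other adult sites, such as *Pax9* in stratified oral epithelium and *Isl1* in some neurons and Merkel cells.

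*Fcgr2b*, the gene named in the label, had 24.0 ± 8.28 CPM (SD, n = 5) in WT and 27.8 ± 2.90 CPM (n = 4) in the libraries labelled FcγRIIB-/-. It was not lower there (log2 fold change 0.21, SE 0.20, adjusted p = 0.442, edgeR's quasi-likelihood test), so the groups are named by their labels. CPM are counts scaled to the size of each library with TMM factors, which correct for its composition, and the fold changes are of the mice labelled FcγRIIB-/- over WT. Of 16329 genes tested, 33.3% passed an adjusted p of 0.05, with 2289 (14%) higher and 3144 (19.3%) lower in the mice labelled FcγRIIB-/-. Scaled by total counts alone, the split was 1309 higher and 3781 lower. Nothing in the labels states litters or processing days. The p-values set each group difference against the spread between mice within the groups, which does not hold a litter or day difference between the groups.

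*Isl1* and *Tbx1* were higher and *Pax9* was lower in the mice labelled FcγRIIB-/-, and the other 6 did not pass. A share of 3 in 9 is close to the 33.3% of all tested genes, so the number called is not particular to the patterning factors. The sign was positive for 7 of the 9, against 50.6% of all tested genes, and the median log2 fold change was 0.34 against 0.01 over all tested genes. No member had an absolute log2 fold change of 1 or more, a limit that 7.66% of all tested genes passed together with the adjusted p. With DESeq2, which called 37% of the genes it tested, *Lhx6* was called in addition, for 3 members higher and 1 lower.

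**Figure D1:**
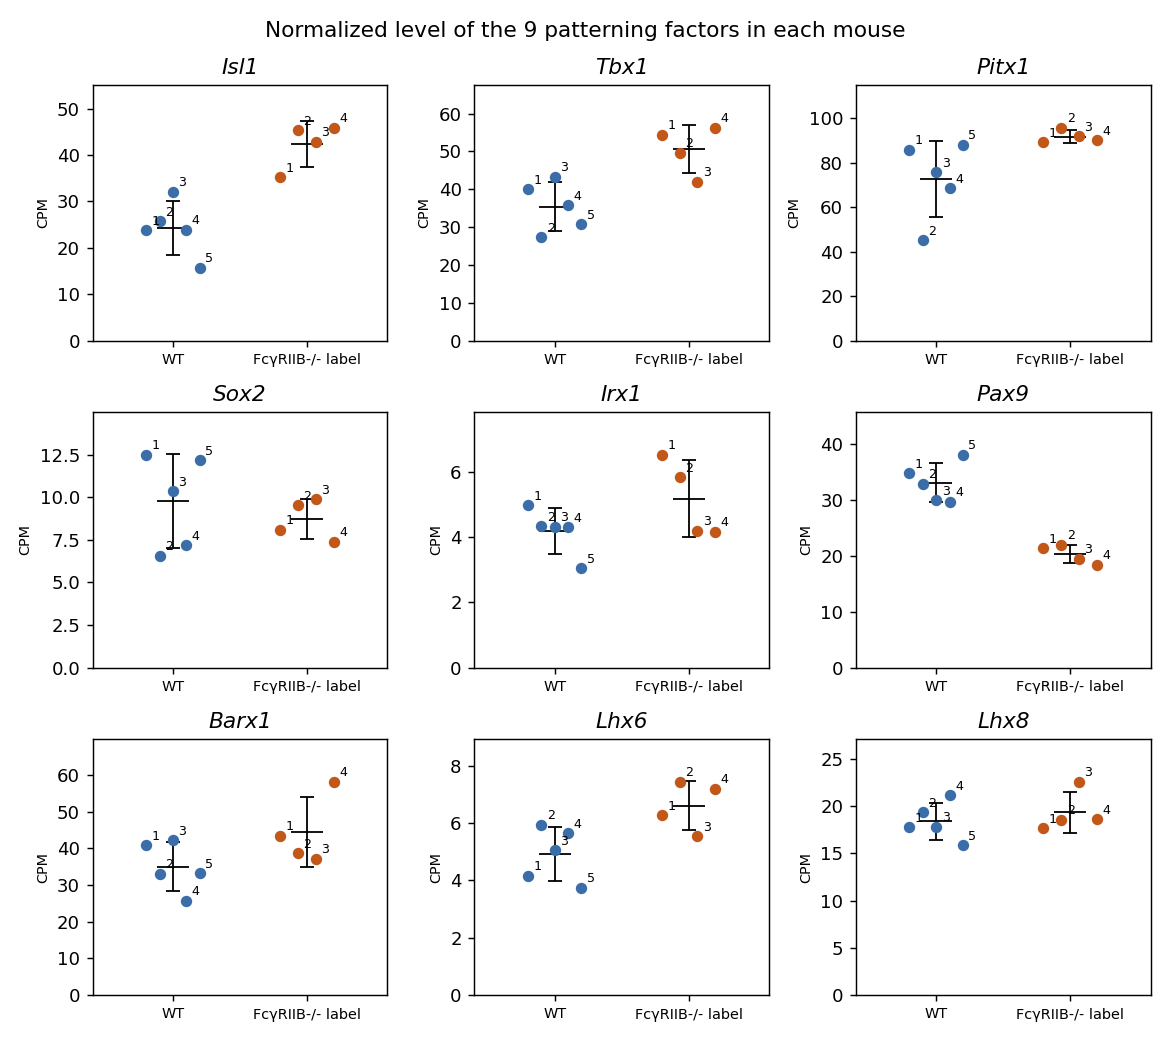
Expression of the 9 factors in each mouse, in CPM on TMM-scaled libraries, with 1 panel per gene, a point per mouse numbered by replicate (blue for WT, orange for the label FcγRIIB-/-), and a line and bars for the mean and SD of each group. *Isl1*, *Pitx1* and *Pax9* show no overlap between the 5 WT mice and the 4 mice labelled FcγRIIB-/-, and *Pax9* is the one of these with the lower values in the labelled group.

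The windows before the start sites of the 3 called genes are printed to show the base composition and motif matches of these regions. They are the 250 bases upstream of a RefSeq transcript start in GRCm38.p6, read 5′ to 3′ on the gene's strand, in lower case with any match to 4 motifs in capitals. The motifs were TAATCC (bound by Pitx-type homeodomains), TAATTA (bound by many homeodomains), CCAAT and TATAAA, on both strands, and they were chosen with the windows in view. A window was found for 7 of the 9 members, and *Pitx1* and *Irx1* had none.
Isl1 (chr13:116309689-116309938, minus strand): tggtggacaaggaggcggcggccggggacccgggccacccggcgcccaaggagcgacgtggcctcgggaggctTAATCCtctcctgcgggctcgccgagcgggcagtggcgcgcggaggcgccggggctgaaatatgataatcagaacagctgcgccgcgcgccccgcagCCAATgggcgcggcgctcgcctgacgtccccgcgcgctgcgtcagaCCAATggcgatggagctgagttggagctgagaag
Tbx1 (chr16:18590672-18590921, minus strand): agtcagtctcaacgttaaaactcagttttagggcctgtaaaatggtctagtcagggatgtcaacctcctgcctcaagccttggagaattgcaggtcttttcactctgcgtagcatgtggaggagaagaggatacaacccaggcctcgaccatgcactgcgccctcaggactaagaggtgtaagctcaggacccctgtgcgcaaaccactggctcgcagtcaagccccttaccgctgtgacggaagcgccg
Pax9 (chr12:56695221-56695470, plus strand): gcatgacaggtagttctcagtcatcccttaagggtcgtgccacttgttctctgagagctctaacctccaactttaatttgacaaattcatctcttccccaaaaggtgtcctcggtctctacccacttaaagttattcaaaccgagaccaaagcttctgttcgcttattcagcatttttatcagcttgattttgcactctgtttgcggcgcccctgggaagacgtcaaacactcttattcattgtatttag
The *Isl1* window had 71.2% G+C and 33 CpG dinucleotides, at percentile 92.2 of all 32851 windows for G+C, with 1 TAATCC and 2 CCAAT matches. The *Pax9* window had 43.6% G+C and 7 CpG, at percentile 20.1, and none of the 4 motifs. It lies 3778 bases inside the RefSeq gene, downstream of the first start, and holds no GENCODE exon. *Tbx1* had 2 windows with none of the motifs. The printed one, at the RefSeq gene start, had 54.4% G+C and 10 CpG (percentile 56.5), and the other, 1772 bases inside the gene, had 67.2% G+C and 17 CpG (percentile 86.5). Among all windows the median was 52.4% G+C and 6 CpG, and TAATCC was present in 6.25%, TAATTA in 4.84%, CCAAT in 33.8% and TATAAA in 12.4%. A match describes letters in the window only.

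*Isl1* (Entrez gene 16392, chr13:116298270-116309688, minus strand, GRCm38), a LIM-homeodomain factor, had the largest positive log2 fold change of the 9. The WT mice had 23.8, 25.7, 32.1, 23.9 and 15.7 CPM in replicates 1 to 5. The mice labelled FcγRIIB-/- had 35.2, 45.4, 42.9 and 45.9 CPM. Every mouse of the labelled group was above every WT mouse, and WT replicate 5 was the lowest of all. The means were 24.2 ± 5.88 CPM (SD, n = 5) and 42.4 ± 4.92 CPM (n = 4), a log2 fold change of 0.80 (SE 0.17, 95% interval 0.43 to 1.18, adjusted p = 0.00535, edgeR's quasi-likelihood test). A two-sided exact permutation test over all splits of the mice gave p = 0.0159. In these bulk samples, more or fewer cells of a type and more or less RNA per cell cannot be told apart.

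*Tbx1* (Entrez gene 21380, chr16:18580979-18590671, minus strand), a T-box factor of dental epithelium and of the pharyngeal arches, was also higher. The WT mice had 39.9, 27.4, 43.3, 35.8 and 30.7 CPM. The labelled mice had 54.4, 49.7, 41.9 and 56.3 CPM. The groups overlapped in a single pair, in which WT replicate 3 lay above labelled replicate 3. The log2 fold change was 0.51 (SE 0.14, 95% interval 0.21 to 0.81, adjusted p = 0.0163, edgeR), with means of 35.4 ± 6.53 CPM (n = 5) and 50.6 ± 6.39 CPM (n = 4), and exact permutation p = 0.0317.

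*Pax9* (Entrez gene 18511, chr12:56691693-56712824, plus strand), a paired-box factor that tooth buds need to develop, moved the other way. The WT mice had 34.7, 32.9, 29.9, 29.7 and 38.1 CPM. The mice labelled FcγRIIB-/- had 21.4, 22.0, 19.4 and 18.4 CPM. Every labelled mouse was below every WT mouse, and the spread within the labelled group was narrow. The means were 33.0 ± 3.51 CPM (n = 5) and 20.3 ± 1.67 CPM (n = 4), a log2 fold change of -0.70 (SE 0.09, 95% interval -0.91 to -0.50, adjusted p = 7.20e-04, edgeR). The exact permutation p of 0.00794 is the smallest that 5 against 4 mice can give. On the opposite strand, exons of *Slc25a21*, a mitochondrial carrier gene, overlap exons of *Pax9*. *Slc25a21* also was lower, at 5.69 ± 0.906 CPM in WT and 2.24 ± 0.622 CPM in the labelled mice (log2 fold change -1.35, adjusted p = 0.00146, edgeR). Whether counting used strand is not given in the sources used here, so reads of these genes may not have been kept apart.

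Marker genes of other cells also differed between the groups, beside 14% of all tested genes that were higher and 19.3% that were lower. The summed level of 8 ameloblast markers (enamel-forming cells) ran from 9573 to 25849 CPM in WT, lowest in replicate 5, and from 29174 to 50428 CPM in the labelled mice. Of the 8, 5 were higher, among them *Amelx* (log2 fold change 1.34, adjusted p = 0.00757, edgeR), and *Odaph* was lower. WT replicate 5 was the lowest mouse for both *Isl1* and the ameloblast sum. That mouse was also the lowest for the marker sums of odontoblasts (3561 CPM), Merkel cells (32.2 CPM) and salivary gland (16.5 CPM). The summed level of 8 markers of stratified oral epithelium ran from 6119 to 21594 CPM in WT and from 4786 to 6111 CPM in the labelled mice, with 5 markers lower and *Krt5* higher. Of these, *Krt13* had a log2 fold change of -5.32 and *Krt4* of -5.67. WT replicate 5 was the highest mouse for *Pax9* and for this sum. WT replicate 2 and labelled replicate 2 had nearly the same sum (6119 and 6111 CPM), with *Pax9* at 32.9 and 22.0 CPM. The makeup of the sum differed between the groups, so equal sums do not mean equal epithelium. *Krt13* was at 1321 CPM or more in every WT mouse and at 149 CPM or less in every labelled mouse. *Krt4* was at 1066 CPM or more in WT and at 85.7 CPM or less in the labelled mice. The part of these markers in the *Isl1*, *Tbx1* and *Pax9* differences was not tested.

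Other lists bear on the makeup of the samples, again beside 14% of all tested genes higher and 19.3% lower. All 8 tested markers of cornified epithelium were lower, with sums of 439 to 3163 CPM in WT and 84.2 to 104 CPM in the labelled mice. All 9 myeloid markers of marrow were lower (1127 to 3394 against 139 to 418 CPM), and so were all 8 tested erythroid markers (2147 to 2522 against 141 to 564 CPM). Of 10 skeletal muscle markers, 6 were higher (7063 to 16547 against 17309 to 30262 CPM). Odontoblast, Schwann cell, endothelial and satellite cell markers had no call, and 3 of 7 osteoblast markers were lower. In smaller lists, 3 of 5 tested hair follicle markers, 1 of 4 salivary gland markers and 1 of 2 tested neuron markers were higher, as were 2 of 4 Merkel cell markers, with 1 lower. The Merkel cell factor *Atoh1* was too low to test. Their part in the results was not tested.

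*Pitx1* is a homeodomain factor of the first branchial arch. WT had 85.8, 45.1, 75.8, 68.6 and 88.0 CPM. The labelled mice had 89.1, 95.8, 91.9 and 90.1 CPM. All labelled mice lay above all WT mice, but WT replicates 1 and 5 came close to the lowest labelled mouse, and WT replicate 2 was far below the rest. The log2 fold change of 0.34 (SE 0.16, 95% interval -0.02 to 0.69) did not pass (adjusted p = 0.128, edgeR), and the exact permutation p was 0.0476. Without WT replicate 2 it was 0.22. The groups did not overlap for 3 members, against 29.6% of all tested genes, with *Isl1* and *Pitx1* above WT (12.1% of all tested genes) and *Pax9* below it (17.5%). The *Pitx1* gene is on the minus strand at chr13:55825044-55836190. Its exons overlap those of *Gm28760* on the same strand and those of *Gm47071* on the opposite strand.

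*Sox2* and *Irx1*, the other epithelial members, did not pass the test. *Sox2*, at chr3:34649995-34652461 on the plus strand, had 12.5, 6.58, 10.4, 7.20 and 12.2 CPM in WT and 8.09, 9.52, 9.87 and 7.40 CPM in the labelled mice. The labelled values lay within the WT range, with a log2 fold change of -0.16 (SE 0.20, 95% interval -0.61 to 0.29, adjusted p = 0.568, edgeR). It was -0.04 without WT replicate 1 and -0.05 without WT replicate 5. *Irx1*, an Iroquois homeodomain factor at chr13:71958232-71963723 on the minus strand, had 4.96, 4.33, 4.32, 4.30 and 3.05 CPM in WT and 6.52, 5.82, 4.19 and 4.16 CPM in the labelled mice. Labelled replicates 1 and 2 were above all WT mice and replicates 3 and 4 were within the WT range. The log2 fold change was 0.31 (SE 0.19, 95% interval -0.11 to 0.72, adjusted p = 0.236, edgeR), and 0.17 without labelled replicate 1.

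*Barx1*, the homeodomain factor of molar mesenchyme (chr13:48663036-48666507, plus strand), had 40.9, 33.1, 42.3, 25.7 and 33.2 CPM in WT and 43.4, 38.7, 37.2 and 58.2 CPM in the labelled mice. Labelled replicate 4 was well above the others and the groups overlapped. The log2 fold change was 0.34 (SE 0.16, 95% interval -0.02 to 0.70, adjusted p = 0.133, edgeR), and 0.19 without labelled replicate 4. *Barx1*, *Pitx1*, *Isl1* and *Irx1* are on the same chromosome.

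*Lhx6* and *Lhx8* are related LIM-homeodomain factors of the oral mesenchyme. *Lhx6* (chr2:36081950-36105992, minus strand) had 4.17, 5.94, 5.05, 5.65 and 3.75 CPM in WT and 6.27, 7.44, 5.55 and 7.20 CPM in the labelled mice. The other labelled mice were above all WT mice, but replicate 3 was not. The log2 fold change was 0.43 (SE 0.17, 95% interval 0.06 to 0.80, adjusted p = 0.0702, edgeR), and the gene had between 96 and 179 counts per library. Exons of *Lhx6* overlap those of *Gm27953* on the same strand. *Lhx8* (chr3:154306288-154330560, minus strand) had 17.8, 19.3, 17.8, 21.2 and 15.9 CPM in WT and 17.7, 18.6, 22.6 and 18.6 CPM in the labelled mice. The groups overlapped almost wholly, with a log2 fold change of 0.07 (SE 0.10, 95% interval -0.16 to 0.30, adjusted p = 0.621, edgeR).

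**Figure D2:**
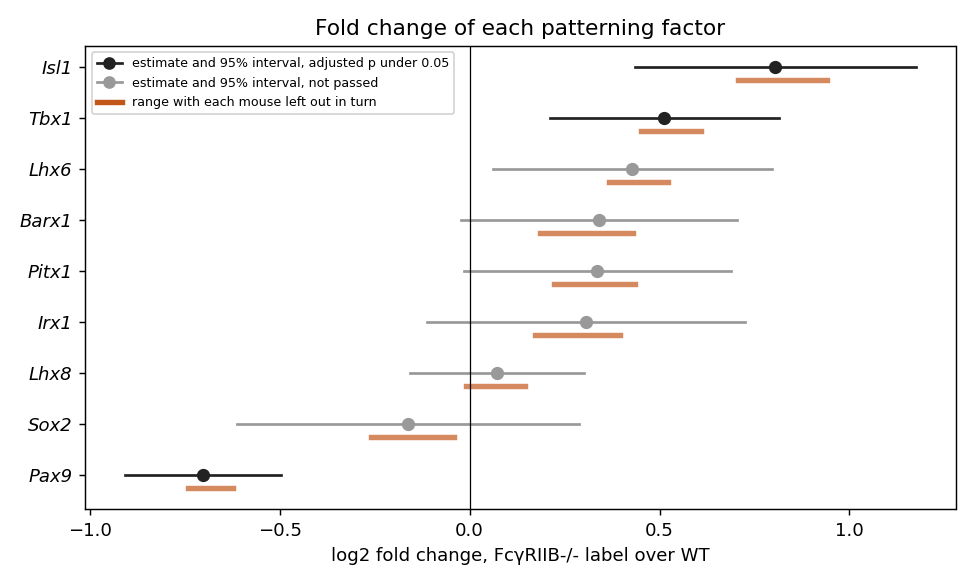
log2 fold change of the mice labelled FcγRIIB-/- over WT for the 9 factors, with 95% intervals from edgeR's quasi-likelihood fit, in black for an adjusted p under 0.05 and grey otherwise, and an orange bar for the range with each mouse left out in turn. *Isl1* and *Tbx1* lie above 0 and *Pax9* lies below 0, and the interval of *Lhx6* also leaves out 0 although its adjusted p is 0.0702.

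Levels were compared between genes per kilobase of the longest GENCODE transcript. In WT, *Pitx1* was at 29.6 ± 7.03 CPM per kilobase and *Barx1* at 25.0 ± 4.81, and their ranges overlapped. *Tbx1* followed at 14.1 ± 2.60, with a range below that of *Barx1*. Then came *Isl1* at 9.63 ± 2.34, *Lhx8* at 8.87 ± 0.952 and *Pax9* at 7.81 (range 7.01 to 8.99), and from *Tbx1* to *Pax9* each overlapped the next in the order. *Sox2* was at 4.75 ± 1.34, *Irx1* at 1.77 ± 0.295 and *Lhx6* at 1.41 ± 0.270 (SD, n = 5, throughout), and *Sox2* did not overlap *Pax9* or *Irx1*. In the labelled mice *Isl1* was at 16.8 and *Pax9* at 4.80 CPM per kilobase. The order depends on the transcript length. With the median transcript length *Lhx8* stood at 21.0, *Isl1* at 20.2, *Tbx1* at 19.1 and *Irx1* at 5.11 CPM per kilobase, so that *Lhx8* and *Isl1* came before *Tbx1* and *Irx1* before *Sox2*, while *Pitx1* stayed the highest at 46.9 and *Lhx6* the lowest at 1.54.

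Within the groups, the genes whose log2 CPM varied most like a member were found among 15152 genes over 9 mice, as Pearson's r after removing the group means. These values are a description, and points share library and depth. They are the highest of 15152 genes from only 9 mice, and the level that unrelated genes would reach was not computed. For *Isl1* they were *Enam* (r = 0.996), which encodes the enamel protein enamelin, *Cntnap2* (0.986) and *Chst1* (0.981). *Enam* had 1234, 1413, 1946, 1274 and 704 CPM in WT and 1933, 2988, 2683 and 2807 CPM in the labelled mice, and so was lowest in WT replicate 5, as *Isl1* was. The log2 fold changes were 0.99 for *Enam*, 0.85 for *Cntnap2* and 1.21 for *Chst1*, all higher (adjusted p = 0.0116, 0.00929 and 0.0065, edgeR). For *Pax9* they were *Csf1* (0.956), which encodes a growth factor of macrophages, *Sapcd2* (0.953) and *Xpo7* (0.951), and *Csf1* and *Xpo7* were lower (log2 fold change -0.43 and -0.81). For *Tbx1* they were *Pla2g12a* (0.968), *Fancc* (0.964) and *Gstt3* (0.962), none of which passed the test. The values of the other 6 members lay between 0.931 and 0.985.

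**Figure D3:**
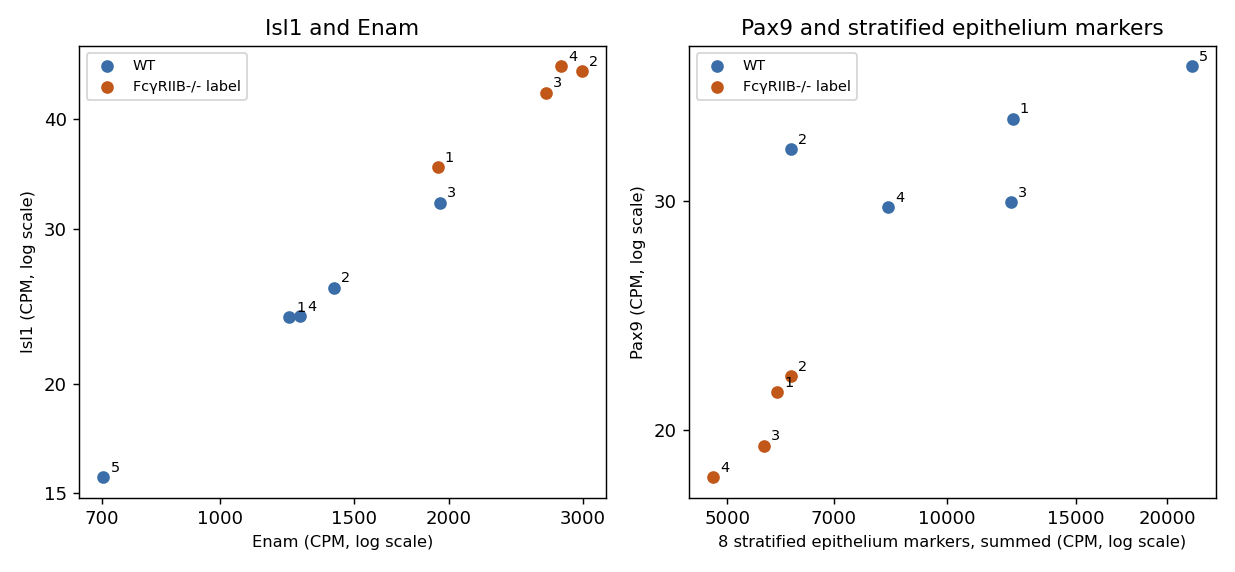
Left, *Isl1* against *Enam* in each mouse, and right, *Pax9* against the summed level of the 8 stratified oral epithelium markers, in CPM on log axes, with a numbered point per mouse (replicate number) in blue for WT and orange for the label FcγRIIB-/-. WT replicate 5 is lowest for *Isl1* (15.7 CPM) and *Enam* (704 CPM), and highest for *Pax9* (38.1 CPM) and for the epithelial sum (21594 CPM). That mouse is also lowest for other marker sums, such as those of odontoblasts and Merkel cells. WT replicate 2 and labelled replicate 2 have nearly the same epithelial sum (6119 and 6111 CPM), with *Pax9* at 32.9 and 22.0 CPM. The makeup of the sum differs between the groups, as *Krt4* and *Krt13* are lower in every labelled mouse than in every WT mouse.

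Close paralogs of the 9 members were read from a list of 19 genes. Of these, 10 passed the filter, 3 of them higher and none lower, with a median log2 fold change of 0.55 against 0.01 over all tested genes. Among all tested genes 14% were higher and 19.3% lower. *Irx2* had 2.85 to 4.71 CPM in WT and 6.03 to 7.60 CPM in the labelled mice (log2 fold change 0.92, adjusted p = 0.00253, edgeR). *Irx5* had 54.1 to 72.9 against 87.1 to 113 CPM (0.57, adjusted p = 0.0024). *Pitx3* (0.93), *Pax1* (0.71) and *Lhx2* (0.56) had positive values that did not pass. The other 9, which include *Lhx1*, *Lhx3*, *Lhx9* and *Isl2*, were too low to test, and *Sox3* and *Lhx4* had no count.

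Among 35 other tooth and jaw transcription factors, 5 were higher and 3 lower, with a median log2 fold change of -0.03. The shares over all tested genes were 14% higher and 19.3% lower. *Sp6*, the epithelial factor also called epiprofin, had 128 to 278 CPM in WT and 338 to 436 CPM in the labelled mice (0.73, adjusted p = 0.0153, edgeR). The Hedgehog target *Gli1* (0.60), *Dlx3* (0.44) and *Gsc* (0.40) were also higher. *Osr2* (-0.42), a mesenchymal factor that limits the tooth field, *Prrx1* (-0.26) and *Twist1* (-0.23) were lower, all 3 known from mesenchyme. The homeodomain factors *Msx1* (0.33) and *Msx2* (0.48) did not pass. For *Gli1* and *Msx2*, the paper states that quantitative PCR gave the opposite of its RNA-seq.

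Of 25 signals and receptors of tooth development, 23 were tested, 3 were higher and 2 lower, with a median log2 fold change of 0.10. By the same test 14% of all tested genes were higher and 19.3% lower. *Shh*, the Hedgehog ligand made by dental epithelium, had 16.6 to 43.5 CPM in WT and 67.0 to 109 CPM in the labelled mice (1.26, adjusted p = 0.00535, edgeR). *Wnt10a* (0.67) and *Bmp4* (0.44) were also higher, and *Eda* (-0.65), the ectodysplasin ligand, and *Fgfr2* (-0.31) were lower. Of the 23 tested, 4 lay wholly above WT and 2 wholly below it, against 12.1% and 17.5% of all tested genes. *Fgf8* and *Fgf20* were too low to test.

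The LIM-homeodomain members act through cofactors, and of 10 LIM domain cofactors 3 were higher (*Lmo1* 0.49, *Ssbp4* 0.31, *Ssbp3* 0.26) and 1 was lower (*Lmo2* -0.60). For this list and the next, the shares of all tested genes were 14% higher and 19.3% lower. *Ldb1*, the shared LIM-binding partner, had 140 ± 11.2 CPM in WT and 138 ± 13.5 CPM in the labelled mice (log2 fold change -0.01, not passed). Of 10 genes of the incisor epithelial stem cell niche, *Gli1* was higher and none was lower, with a median of -0.10. The lowest value was that of *Ptch1*, the Hedgehog receptor and target, at -0.57 (61.0 ± 6.97 CPM in WT and 41.0 ± 16.4 CPM in the labelled mice, adjusted p = 0.0638, edgeR), and it did not pass. With DESeq2, 1 gene of the niche list was lower. The paper, which used DESeq2, names *Ptch1* among the Hedgehog genes it found significantly dysregulated. With edgeR, *Lgr5* (-0.43), *Lrig1* (-0.05) and *Bmi1* (0.11) did not pass, nor did *Sox2*, which is known from the same niche.

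**Figure D4:**
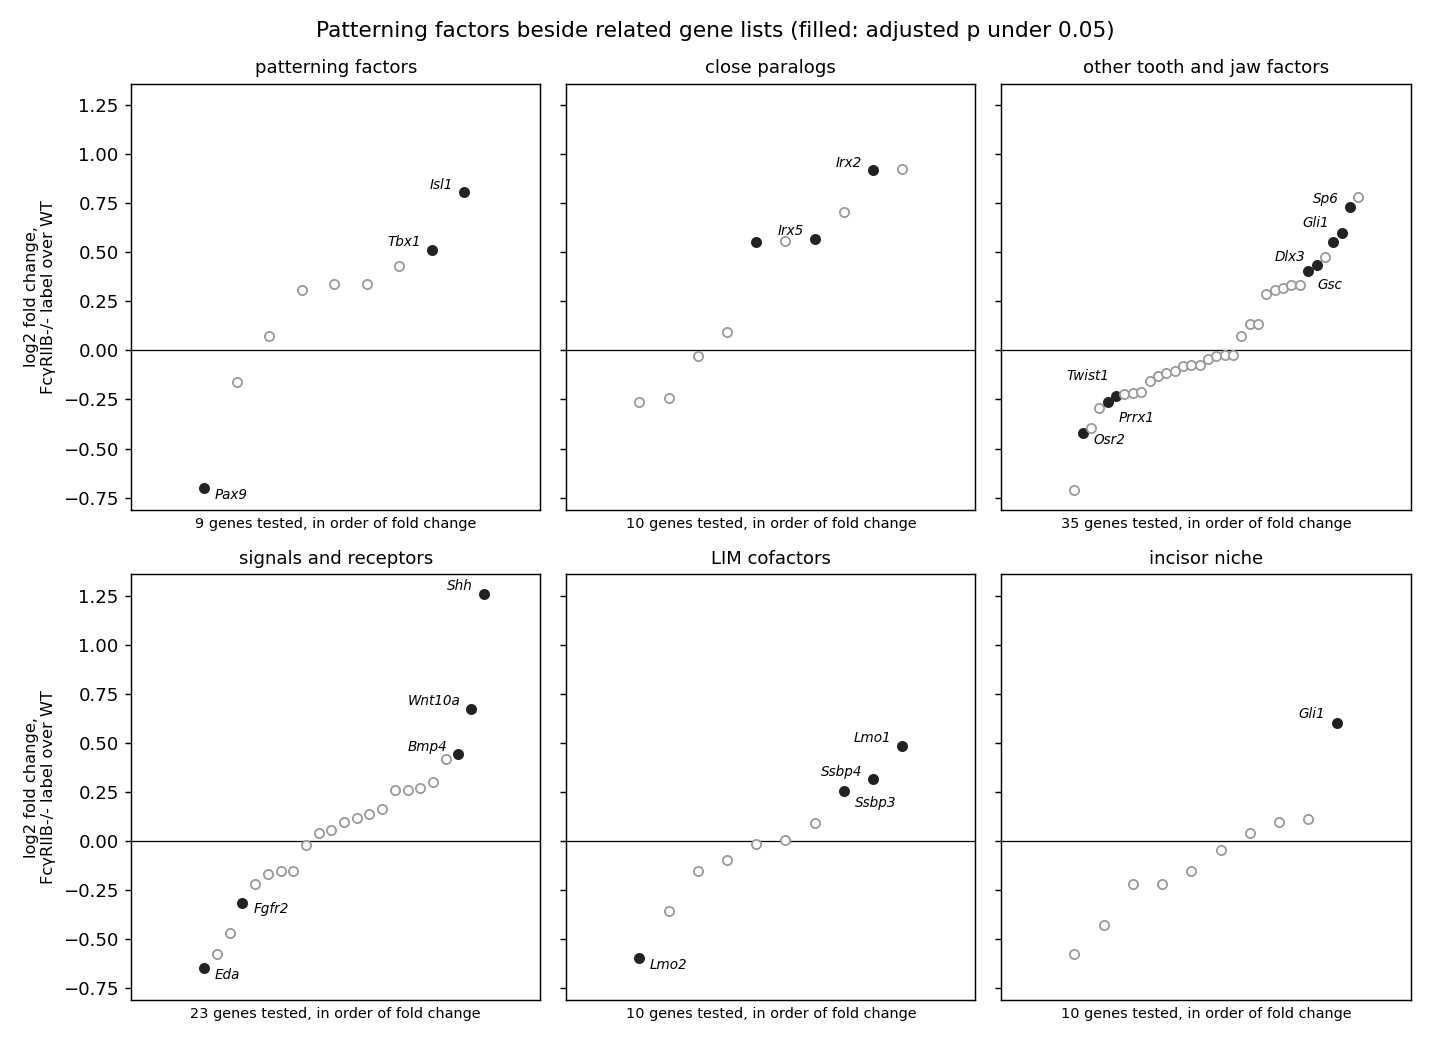
log2 fold changes of the mice labelled FcγRIIB-/- over WT for the 9 patterning factors and 5 related gene lists, each ordered from lowest to highest, with filled points for an adjusted p under 0.05 (edgeR). *Isl1* and *Tbx1* are higher and *Pax9* lower among the members, and *Shh* has the highest value of all 6 panels, at 1.26.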

How the data were processed

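Mandibular poly(A) RNA of 5 WT mice and 4 mice labelled FcγRIIB-/- was sequenced with a strand-marking kit. The authors trimmed reads with Trim Galore, aligned them to mm10 with HISAT (02.1.0) and obtained counts per gene with featureCounts, and these raw counts are the deposited values. The annotation and strand setting are not given in the sources used here. One column of per-sample values, of 1 sample without a label here, was not used. Groups and replicate numbers come from the labels, and mice that share a number are different animals.

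Genes were tested in R 4.3.3 with edgeR 4.0.16: filterByExpr (minimum count 10), TMM scaling, the quasi-likelihood test between the 2 groups without covariates, Benjamini-Hochberg adjustment over all tested genes, and a threshold of 0.05. Standard errors and 95% intervals come from that fit. log2 CPM used a prior count of 2. Single members were also tested by exact permutation of the genotype labels, two-sided. The 9 members, the gene lists and the marker lists were chosen with earlier results of these data known. Named genes are the members, *Fcgr2b*, up to 4 called genes of each list in each direction by fold change, the markers, and for each member the 3 genes with the highest correlation at an average log2 CPM of at least 0. *Gsc*, *Slc25a21*, *Msx1*, *Msx2*, *Ptch1*, *Lgr5*, *Lrig1*, *Bmi1*, *Ldb1*, *Pitx3*, *Pax1* and *Lhx2* were added after their values were seen. One gene covered by this rule is not reported here, though it stays in the counts of its lists. Gene positions and windows are from RefSeq, and transcript lengths from GENCODE, both on GRCm38. The procedure was tested on simulated data. Alternatives were the scaling, the filter, DESeq2 1.42.0, a fold limit, a replicate block, leaving out each mouse, and, chosen after seeing the data, leaving out WT replicates 2 and 5 together. Totals of at least 21453880 counts per mouse make counting error small for most members. The lowest, *Irx1*, had at least 78 counts in each library.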

Additional observations from a re-analysis of the deposited data

Results flagged for a closer look

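A total of 50 groups of values (the 9 members, *Fcgr2b* and the marker sums, in each genotype) were examined for a mouse far from the others by Dixon's test, and 4 groups held one. Chance flags about 1 in 20 groups, and none of the 9 patterning factors was among them. *Fcgr2b* was high in WT replicate 2, at 38.3 CPM against 23.1 CPM in the next mouse, and in labelled replicate 4, at 32.1 CPM against 26.6 CPM. The summed CPM of the cornified epithelium markers was high in WT replicate 5, at 3163 against 1147, and so was the sum of the marrow myeloid markers, at 3394 against 1777.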

How the results depend on the processing

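The calls of *Isl1*, *Tbx1* and *Pax9* kept their direction and side of the threshold under all 16 alternatives of scaling, filter, test, block and left-out mice. Leaving out each mouse in turn gave log2 fold changes of 0.71 to 0.94 for *Isl1*, 0.45 to 0.61 for *Tbx1* and -0.74 to -0.62 for *Pax9*. *Lhx8* changed sign with total counts (-0.0043), and from -0.0089 to 0.15 over the fits without 1 mouse, below 0 without labelled replicate 3. *Lhx6* passed with DESeq2 (0.44, adjusted p = 0.0368) and without WT replicate 2 (0.52, adjusted p = 0.0402), *Pitx1* without WT replicates 2 and 5 together (0.28, adjusted p = 0.0429), and *Fcgr2b* without WT replicate 2 (0.46, adjusted p = 0.0131) and without both (0.47, adjusted p = 0.0245).

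Over all genes, 1309 were higher with total counts. Without WT replicates 2 and 5 together, 1479 were higher and 2066 lower, with fewer mice. With the fold limit of 1 on the log2 scale 181 were higher and 1069 lower, while the members had 0 higher and 0 lower. That limit left 0 higher and 0 lower among the other tooth and jaw factors, 1 higher and 0 lower among the signals and receptors, 0 higher among the paralogs, 0 higher and 0 lower among the LIM cofactors and 0 higher in the incisor niche. Among the other tooth and jaw factors, total counts gave 3 higher and DESeq2 10 higher, and without WT replicates 2 and 5 together 1 was lower. Leaving out each mouse gave 3 to 8 higher (8 without WT replicate 3, 3 without labelled replicate 2) and 1 to 3 lower (1 without WT replicate 1, 2, 4 or 5). The LIM cofactors had 1 higher with total counts, 1 to 3 higher with each mouse left out (1 without labelled replicate 4) and 0 lower without WT replicates 2 and 5 together. The incisor niche had 1 lower with DESeq2 and 0 to 1 with each mouse left out (1 without labelled replicate 2). The cause of these changes was not tested.

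With the replicate number as a block, 1 gene was lower among the other tooth and jaw factors and 1 among the signals and receptors, while the members had 2 higher and 1 lower, and all genes 1841 higher and 2209 lower. The deviations of mice that share a number had correlations of 0.0969, 0.0276, -0.114 and -0.0739, which were small and of both signs. Whether such mice share a litter or a processing day is not stated and was not tested. Members at low CPM, such as *Irx1* and *Lhx6*, rest on fewer counts than the others.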
